A study of Homo sapiens with 6 samples.

Results

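Hyaluronan is a long, unsulfated glycosaminoglycan that fills the space between cells in the dermis. Dermal fibroblasts make it at the plasma membrane with hyaluronan synthases (HAS genes), which join UDP-glucuronic acid and UDP-N-acetylglucosamine, then bind it through the receptor CD44, organise it with proteoglycans and link proteins, and break it down through CEMIP and hyaluronidases. The genes described here are 10 genes of these steps, chosen by name: HAS1, HAS2 and HAS3 for synthesis, CEMIP, CEMIP2 and HYAL2 for breakdown, and CD44, VCAN, TNFAIP6 and HAPLN3 for binding. Of these 10, 9 were among the 21151 listed genes. HAS1 was not analysed here.

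The RNA came from the skin fibroblast line CCD-1064Sk (CRL-2076), grown in serum-containing Iscove's medium. Cells carried either a control short-hairpin RNA (shControl, genotype WT) or short-hairpin RNA against the zinc-finger gene ZNF469 (shZNF469, ZNF469 knockdown), with 3 libraries per group, to ask how ZNF469 affects matrix production. The labels call the 3 libraries technical replicates of a single line, so that p-values measure only the spread between these libraries. How many hairpins or clones were used is not given in the sources used here, and a difference between the groups cannot be told apart from one between hairpins or cultures.

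Total counts ran from 35417366 to 48298264 per library. Mitochondrially encoded genes took 3.73 to 4.06% of counts under shControl and 4.22 to 4.70% under shZNF469, without overlap, and the part of this difference in the results below was not tested. ZNF469 itself stood at 39.7, 46.2 and 39.9 CPM under shControl and 21.4, 18.3 and 18.5 CPM under shZNF469, where CPM is the count scaled to a common library total after TMM normalization. Of 16353 genes tested, 9.9% passed in either direction (edgeR quasi-likelihood test, adjusted p under 0.05), 4.56% as higher and 5.34% as lower in shZNF469. All 9 fibroblast markers checked were listed, at summed levels of 56360 to 58690 CPM under shControl and 33890 to 36250 CPM under shZNF469, where the collagen markers COL1A1, COL1A2 and COL3A1 were lower. VIM was higher (log2 fold change 0.32, adjusted p = 0.0146), and the other 5 fibroblast markers, DCN, LUM, PDGFRA, PDGFRB and THY1, did not pass. Of 6 keratinocyte, 5 endothelial, 6 leukocyte and 6 melanocyte markers, 1, 2, 1 and 1 were listed. The endothelial sum ran from 1.82 to 3.97 CPM in the controls and from 0 to 3.71 CPM in the knockdown. The listed leukocyte marker was CD68 (122 to 149 and 141 to 189 CPM), the keratinocyte marker KRT10 (21.8 to 27.1 and 16.4 to 18.6 CPM) and the melanocyte marker PMEL (12.2 to 13.2 and 24.0 to 25.9 CPM). PMEL was higher and KRT10 lower at adjusted p under 0.05, and their part in the results below was not tested.

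In the knockdown, the synthase gene HAS2 fell 2.05-fold, while the proteoglycan gene VCAN rose 1.63-fold, the receptor gene CD44 rose 1.25-fold and the breakdown gene CEMIP rose 1.18-fold. The other 5 genes tested did not pass. The 3 higher and 1 lower among 9 stand beside the 9.9% called over all genes. DESeq2 called 4 and 2 of the 9, beside 22.5% of the 14552 genes to which it gave an adjusted p. The members were chosen with results of these data known, so both comparisons are a description. In bulk RNA, fewer cells that express a gene and less RNA per cell cannot be told apart.

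HAS2, the synthase gene, lies on chromosome 8 (121612116 to 121641440, GRCh38.p14, minus strand). It had 248, 282 and 234 counts under shControl and 143, 162 and 123 under shZNF469. After scaling these were 6.96, 5.98 and 6.26 CPM against 3.06, 3.27 and 3.03 CPM. Each knockdown library was below each control library, and the spread within the groups was small (mean 6.40 ± 0.504 and 3.12 ± 0.130 CPM, SD, n = 3). The log2 fold change was -1.04 (SE 0.12, 95% interval -1.31 to -0.76, edgeR adjusted p = 0.003). On the authors' TPM, which scales counts by transcript length, HAS2 went from 3.52 ± 0.369 to 1.69 ± 0.177. The antisense gene HAS2-AS1 overlaps 201 bases of HAS2 exons (4.8% of them) on the opposite strand, and the strand setting of the counting is not given in the sources used here. HAS2-AS1 had 0, 19 and 0 counts under shControl and 0, 18 and 20 under shZNF469, far fewer than HAS2 in each library.

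HAS3, the other synthase gene listed (chromosome 16, 69083484 to 69118719), was near the lowest level the table holds. It had 0, 39 and 0 counts under shControl and 41, 67 and 39 under shZNF469, or 0, 0.828 and 0 CPM against 0.878, 1.35 and 0.960 CPM. The groups did not overlap, but the gap between the highest control and the lowest knockdown library was narrow. HAS3 did not pass (edgeR adjusted p = 0.513). A listed 0 is not proof of absence, since the lowest TPM above 0 was 0.333 to 0.456 across the libraries and HAS3, where listed above 0, lay between 0.468 and 0.773 TPM. No fold change is given for it, because a fitted value would depend on how the zeros are treated. Without shControl replicate 2 both remaining controls were at 0 and HAS3 passed (adjusted p = 0.0256). HAS3 also passed the filter on low counts through the knockdown libraries and shares 365 bases of exons (6.9%) with CHTF8 on the opposite strand.

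Per length, HAS2 made up 100, 87.8 and 100% of the summed HAS2 and HAS3 TPM under shControl and 77.6, 70.9 and 76.1% under shZNF469. The means were 95.9 ± 7.06% and 74.9 ± 3.54% (SD, n = 3). The share was 100% in 2 controls only because HAS3 was listed at 0 there, and HAS1 is not in the sum, so these shares are a description. No test is read from them, and an exact permutation test of 3 against 3 cannot go below p = 0.1.

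CEMIP, whose product binds hyaluronan and drives its breakdown in skin fibroblasts, was the most abundant of these genes (chromosome 15, 80779370 to 80951771). It had 3159, 3246 and 3014 CPM under shControl and 3841, 3741 and 3488 CPM under shZNF469. The lowest knockdown library was above the highest control library in CPM, but on the authors' TPM the groups overlapped. The means were 3140 ± 117 and 3690 ± 182 CPM, with a log2 fold change of 0.23 (SE 0.05, 95% interval 0.13 to 0.34, edgeR adjusted p = 0.0228). With 1 library fewer, the call was lost without shControl replicate 1 (log2 fold change 0.25, adjusted p = 0.0838), without shControl replicate 3 (0.20, adjusted p = 0.0826) and without shZNF469 replicate 1 (0.20, adjusted p = 0.0931). Over all genes tested, the calls of higher genes went from 745 to 215, 267 and 204 in those fits. The call was also lost in limma fits of log2 TPM (adjusted p = 0.218 and 0.221). MESD shares 224 bases (2.94%) of CEMIP exons on the opposite strand.

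CEMIP2, which encodes a transmembrane relative of CEMIP, had 75.5, 79.0 and 74.2 CPM under shControl and 68.2, 71.6 and 60.1 CPM under shZNF469. The groups did not overlap in CPM but did in TPM, and CEMIP2 did not pass (log2 fold change -0.19, 95% interval -0.37 to -0.02, edgeR adjusted p = 0.163). It passed as lower with DESeq2 (adjusted p = 0.0418). HYAL2, a hyaluronidase gene whose product is anchored at the cell surface, had 42.2, 39.1 and 42.7 CPM under shControl and 48.2, 43.3 and 51.2 CPM under shZNF469. The highest control and the lowest knockdown library lay close together in CPM, the groups overlapped in TPM, and HYAL2 did not pass (log2 fold change 0.20, 95% interval 0.03 to 0.38, edgeR adjusted p = 0.148). It passed as higher with DESeq2 (adjusted p = 0.0409) and without shZNF469 replicate 2 (adjusted p = 0.0452). HYAL2 shares 509 bases (11.2%) of its exons with TUSC2 on the same strand, so that reads there could have been counted for either gene.

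CD44, the main cell-surface receptor of hyaluronan (chromosome 11, 35139171 to 35232402), stood at 750.9, 702 and 739 CPM under shControl. The knockdown libraries had 909.7, 904 and 917 CPM, all above the controls and close to each other. The means were 731 ± 25.5 and 910.4 ± 6.69 CPM (SD, n = 3), with a log2 fold change of 0.32 (SE 0.04, 95% interval 0.22 to 0.41, edgeR adjusted p = 0.00456). CD44-AS1 shares 84 bases (0.84%) of CD44 exons on the opposite strand.

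VCAN encodes versican, a large chondroitin sulfate proteoglycan that binds hyaluronan through a link module (chromosome 5, 83471744 to 83582302). It had 847, 1198 and 873 counts under shControl and 1912, 2126 and 1399 under shZNF469, or 23.8, 25.4 and 23.3 CPM against 41.0, 42.9 and 34.4 CPM. shZNF469 replicate 3 was the lowest of the knockdown libraries and still above each control. The means were 24.2 ± 1.10 and 39.4 ± 4.44 CPM (SD, n = 3), with a log2 fold change of 0.71 (SE 0.09, 95% interval 0.49 to 0.92, edgeR adjusted p = 0.00453). VCAN-AS1 shares 453 bases (3.05%) of VCAN exons on the opposite strand. The calls of HAS2, VCAN and CD44 held in each of the 13 alternative analyses run, with adjusted p up to 0.0286, 0.0354 and 0.0404.

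TNFAIP6 encodes TSG-6, which moves protein heavy chains onto hyaluronan and is known as an inflammation-induced gene. It had 4.24, 3.16 and 3.72 CPM under shControl and 2.72, 3.09 and 3.32 CPM under shZNF469. The groups overlapped, and TNFAIP6 did not pass (log2 fold change -0.28, 95% interval -0.67 to 0.11, edgeR adjusted p = 0.365). HAPLN3, a link protein gene, had 14.3, 13.7 and 13.3 CPM under shControl and 12.0, 12.1 and 12.0 CPM under shZNF469. The groups did not overlap, but HAPLN3 did not pass (log2 fold change -0.20, 95% interval -0.37 to -0.03, edgeR adjusted p = 0.147). Its interval holds changes as large as the rise of CD44, in the other direction.

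**Figure D1:**
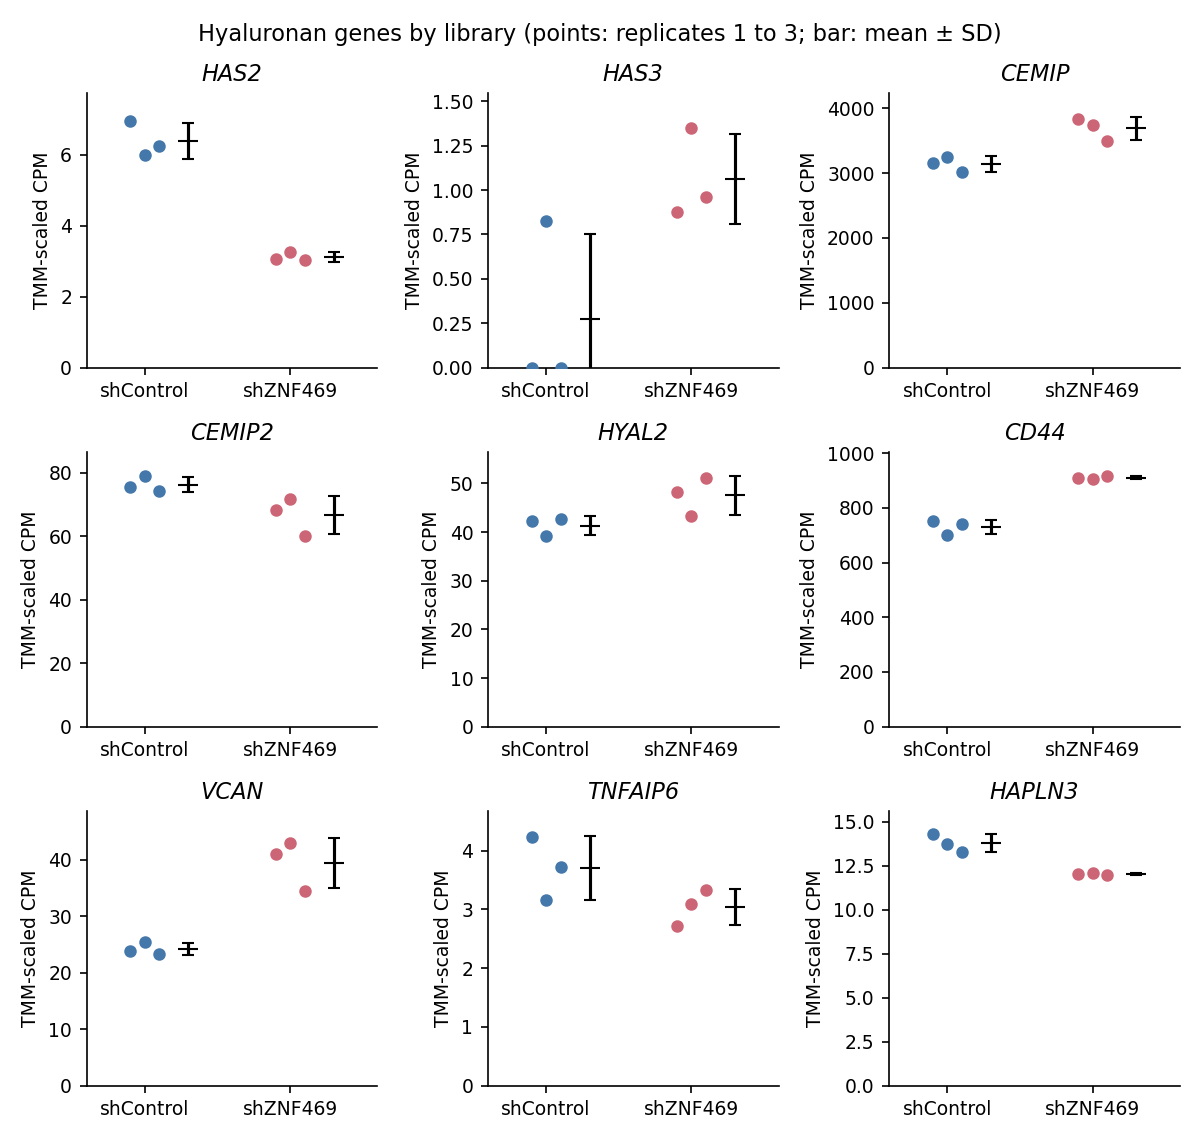
TMM-scaled CPM of the 9 listed hyaluronan genes in each library, with a separate linear axis from 0 for each gene; points are replicates 1 to 3 of shControl (blue) and shZNF469 (red), and bars are the mean ± SD (for HAS3 the control bar runs below 0 and is drawn from 0). HAS2 sits at 5.98 to 6.96 CPM in the controls and 3.03 to 3.27 CPM in the knockdown, and TNFAIP6 is the gene whose groups overlap.

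On the CPM scale, the groups did not overlap for 5 genes that were higher in the knockdown (HAS3, CEMIP, HYAL2, CD44 and VCAN) and 3 that were lower (HAS2, CEMIP2 and HAPLN3). HAS3 is in this count because the knockdown libraries carried it past the filter on low counts. Over all genes tested, the groups did not overlap for 31.4%, with 15.6% higher and 15.7% lower. On the authors' TPM, the groups of CEMIP, HYAL2 and CEMIP2 overlapped as well, which left 3 genes without overlap that were higher (HAS3, with 2 controls at 0, CD44 and VCAN) and 2 that were lower (HAS2 and HAPLN3). The share of all genes without overlap was taken on CPM only, so these TPM counts are a description. The spread between libraries of a group differed among the genes. In the knockdown the coefficient of variation of CPM was 0.522% for HAPLN3 and 0.735% for CD44 but 11.3% for VCAN, and in the controls it was 14.5% for TNFAIP6 and 3.26% for CEMIP2. That of HAS3, with 2 controls at 0, was larger (173% in the controls and 23.8% in the knockdown).

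**Figure D2:**
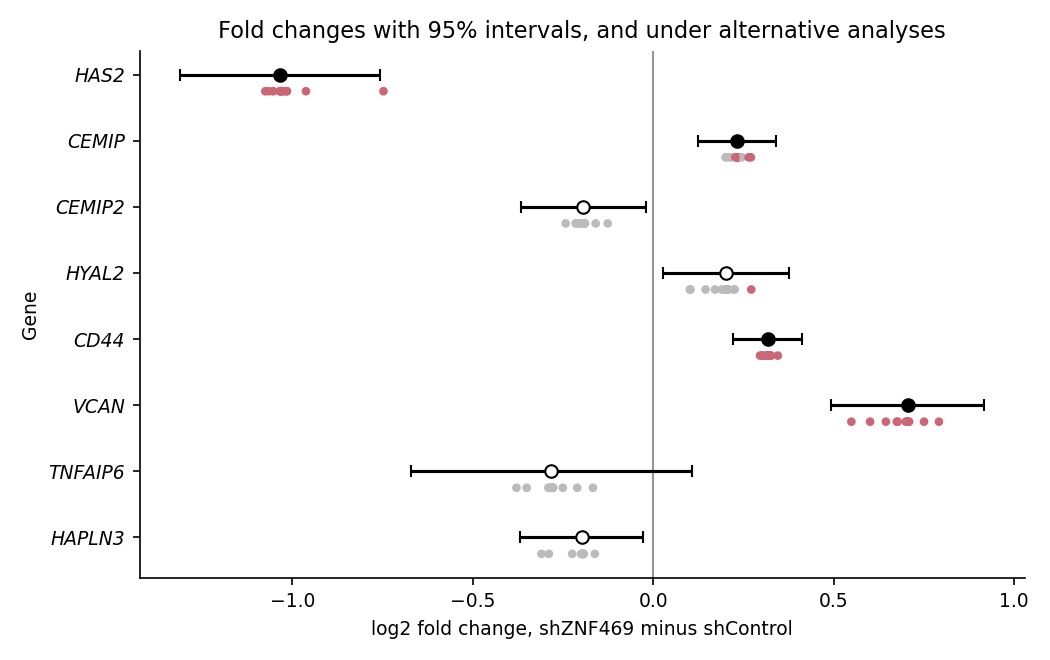
Log2 fold change (shZNF469 minus shControl) of 8 hyaluronan genes with 95% intervals from the edgeR fit (filled, adjusted p under 0.05; open, not passed); small points under each are the 13 alternative analyses (red, adjusted p under 0.05; grey, not passed), and HAS3 is left out. HAS2 lies at -1.04 and VCAN at 0.71, with each of their alternatives passing, while those of CEMIP are mixed.

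Levels of different genes were compared on the authors' TPM. In the controls the order was CEMIP (1006 ± 74.6 TPM), CD44 (417 ± 20.6), HYAL2 (42.8 ± 1.07), CEMIP2 (29.3 ± 1.86), HAPLN3 (13.8 ± 1.94), VCAN (7.59 ± 0.212), TNFAIP6 (6.05 ± 0.962), HAS2 (3.52 ± 0.369) and HAS3. The ranges of the 3 libraries did not overlap between any neighbours in that order. By mean TPM, CEMIP ranked 141 and CD44 336 of the 21151 genes listed, whereas HAS2 ranked 11603. In the knockdown CEMIP ranked 108, CD44 273 and HAS2 13275. VCAN, at 11.6 ± 1.59 TPM, then stood level with HAPLN3, at 11.1 ± 0.576 TPM, with overlapping ranges. The other neighbours kept their order without overlap.

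**Figure D3:**
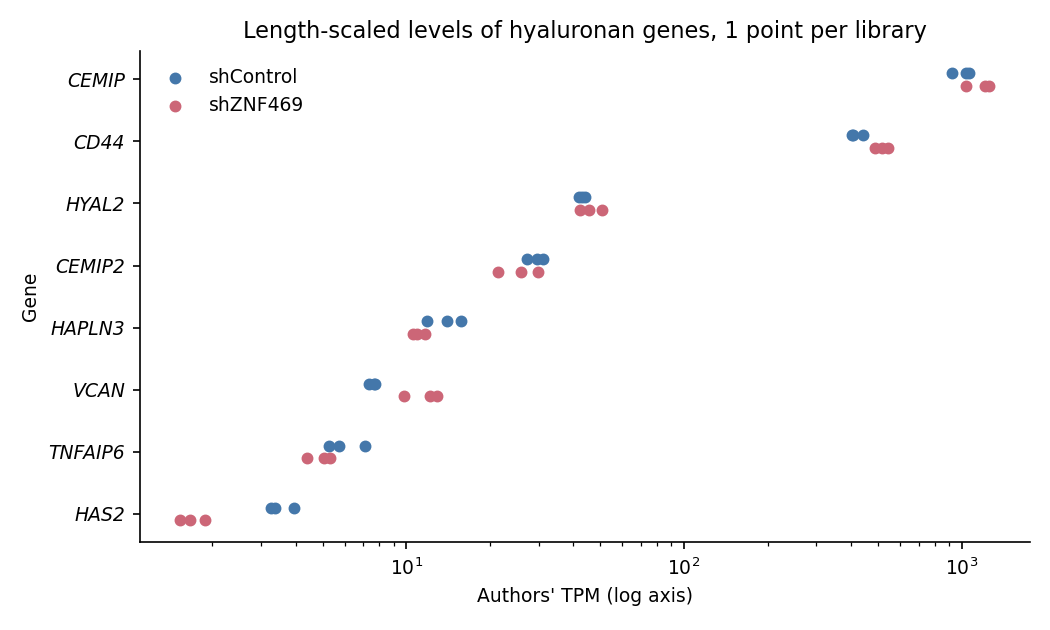
The authors' TPM of 8 hyaluronan genes on a log axis, with 1 point per library (blue, shControl; red, shZNF469) and genes ordered by their control mean; HAS3 is left out because 2 controls are listed at 0. CEMIP lies near 1006 TPM and HAS2 at 3.52 TPM in the controls, and VCAN moves from below HAPLN3 to its level.

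The sequences just before the start sites of the 3 genes that rose, and of the inflammation-induced TNFAIP6 for contrast, are shown. The 3 genes were picked by their calls, and a shared basis at their start sites was not tested. Sequences are from RefSeq on GRCh38.p14, 180 bases each, 5′ to 3′ on the plus strand, ending at the base before the start. They lie at chr15:80779190-80779369 for CEMIP, chr5:83471564-83471743 for VCAN, chr11:35138991-35139170 for CD44 and chr2:151357412-151357591 for TNFAIP6. Capitals mark matches on either strand to a TATA box (TATAAA), an AP-1 motif (TGANTCA), a GC box (GGGCGG) or a TEAD motif (CATTCC).
CEMIP: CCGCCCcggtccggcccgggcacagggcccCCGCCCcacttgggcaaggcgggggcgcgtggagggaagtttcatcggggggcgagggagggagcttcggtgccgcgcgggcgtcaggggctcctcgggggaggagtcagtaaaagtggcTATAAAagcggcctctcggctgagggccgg
VCAN: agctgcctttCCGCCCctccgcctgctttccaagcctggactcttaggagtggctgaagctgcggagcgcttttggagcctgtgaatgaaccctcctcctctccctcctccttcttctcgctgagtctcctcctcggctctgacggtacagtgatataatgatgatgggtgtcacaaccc
CD44: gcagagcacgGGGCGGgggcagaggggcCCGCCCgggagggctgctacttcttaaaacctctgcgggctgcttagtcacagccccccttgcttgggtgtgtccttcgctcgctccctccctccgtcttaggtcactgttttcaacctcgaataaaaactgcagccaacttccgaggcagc
TNFAIP6: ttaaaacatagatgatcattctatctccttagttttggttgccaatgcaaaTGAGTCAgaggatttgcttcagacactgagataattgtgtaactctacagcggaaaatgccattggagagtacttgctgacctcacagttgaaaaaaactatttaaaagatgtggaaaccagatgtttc

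CEMIP had a TATA box match that began 30 bases before the start, and it was the only one of the 9 genes with an entry in the promoter table to have one within 250 bases. TNFAIP6 alone had an AP-1 match, 129 bases before the start, and HYAL2 alone a TEAD match, 38 bases before it. GC box matches numbered 3 for CEMIP, 2 for CD44, 1 each for VCAN, HAS1, HAS3 and CEMIP2, and 0 for HYAL2, TNFAIP6 and HAPLN3. None of the matches overlapped another. Of 35116 promoters of that length, 10.7% held a TATA box match, 6.57% an AP-1, 42.6% a GC box and 11.9% a TEAD match. A match of letters is not evidence of a bound site. The table had no entry for HAS2.

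The wider pathway was read from 73 further genes in 9 lists, of which 51 were listed and 49 tested. Of these, 6 were higher and 9 lower, where the shares over all genes tested were 4.56% and 5.34%. The median log2 fold change was 0.0037, beside 0.00395 over all genes tested. The lists were chosen with results of these data known, and the counts in each list below are read against the same shares. The counts were lower in most fits without 1 library, and so were those over all genes. With shControl replicate 1 or 2 left out, 2 genes were called higher and 2 lower, and with shControl replicate 3 left out, 3 and 3. The calls numbered 2 and 3 when shZNF469 replicate 1 was dropped, 6 and 7 for replicate 2 and 4 and 4 for replicate 3. Over all genes tested, the 745 higher and 874 lower became 215 and 333, 332 and 397, and 267 and 405 without shControl replicates 1, 2 and 3, and 204 and 388, 769 and 854, and 496 and 625 without shZNF469 replicates 1, 2 and 3. HMMR, EZR, MMP14 and ADAMTS15 passed in each of the 13 alternative analyses run.

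Enzyme genes that supply UDP-sugars for hyaluronan were mostly lower where they passed: of 9 tested, 4 were lower and 1 higher. Genes of 3 successive steps to UDP-N-acetylglucosamine were called lower in the edgeR fit. GNPNAT1, which acetylates glucosamine phosphate, went from 44.5 ± 2.78 to 33.1 ± 3.57 CPM (1.35-fold lower, edgeR adjusted p = 0.027). PGM3, which moves the phosphate on the next intermediate, was 1.19-fold lower (adjusted p = 0.0365), and UAP1, which makes the UDP-sugar itself, was 1.30-fold lower (adjusted p = 0.0374). GFPT2, a gene for the enzyme that starts this branch, rose from 28.3 ± 3.33 to 38.4 ± 1.45 CPM (1.36-fold, adjusted p = 0.0247). The other such gene, GFPT1, did not pass (128 ± 7.30 and 131 ± 9.33 CPM, log2 fold change 0.03, adjusted p = 0.847). UAP1L1, a relative of UAP1, did not pass (72.9 ± 2.25 and 73.7 ± 4.44 CPM, log2 fold change 0.01, adjusted p = 0.928). The glucuronic acid branch gave no call for UGP2 or UGDH. PGM1, which feeds that branch and is named after its value was seen, was 1.18-fold lower (adjusted p = 0.0494), a call lost in 12 of 13 alternatives. On the authors' TPM the groups overlapped for GNPNAT1 (lowest control 23.7, highest knockdown 23.8) and UAP1 (33.2 and 33.9), but not for PGM3. The limma fits of log2 TPM lost the calls of GNPNAT1 (adjusted p = 0.102 and 0.107), PGM3 (0.1 and 0.106) and UAP1 (0.129 and 0.135). They also lost that of GFPT2 (0.0521 and 0.0552). The calls of GNPNAT1 and PGM3 were lost without each library except shZNF469 replicate 2, that of UAP1 without shControl replicate 1 or 2 or shZNF469 replicate 1 or 3, and that of GFPT2 without shControl replicate 1 or 2 or shZNF469 replicate 1 or 2 (adjusted p up to 0.115, 0.14, 0.15 and 0.1 over the alternatives).

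Of 3 further breakdown genes tested, 1 was higher and 0 lower. HEXA, which encodes a lysosomal hydrolase subunit, rose 1.19-fold (303 ± 14.02 to 361 ± 16.1 CPM, edgeR adjusted p = 0.0338). The call was lost without each library except shZNF469 replicate 2. On the authors' TPM the groups of HEXA overlapped (294 ± 20.8 under shControl and 339 ± 60.6 under shZNF469). The limma fits of log2 TPM lost the call as well (adjusted p = 0.405 and 0.414). HYAL3 and GUSB did not pass, and HYAL1, HYAL4 and SPAM1 were not analysed here. Beyond VCAN and HAPLN3, 3 genes listed as hyaluronan binders were tested and 1 was lower. ACAN (aggrecan) went from 16.8 ± 0.504 to 12.6 ± 1.25 CPM (1.34-fold lower, edgeR adjusted p = 0.0307), a call lost whichever of the 6 libraries was left out. HABP4 and SUSD5 did not pass, HAPLN4 was not tested, and HAPLN1, HAPLN2, NCAN, BCAN and HABP2 were not analysed here.

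Among 4 other receptor genes tested, 1 was higher and 1 lower. HMMR, a hyaluronan-binding protein gene whose product also acts at the mitotic spindle, went from 9.47 ± 0.669 to 4.41 ± 0.260 CPM (2.15-fold lower, edgeR adjusted p = 0.00144). LAYN, which encodes the membrane receptor layilin, rose 1.18-fold (201 ± 9.96 to 238 ± 11.8 CPM, adjusted p = 0.047), a call lost whichever of the 6 libraries was left out. TLR2 and TLR4 did not pass, and LYVE1, STAB1 and STAB2 were not analysed here. Of the genes for heavy chains and their cross-linking, 2 were tested and 1 was lower: PTX3, a pentraxin gene of the hyaluronan matrix, was 1.15-fold lower (adjusted p = 0.0405), a call lost without each library except shZNF469 replicate 3. ITIH5 did not pass, ITIH4 was not tested, and ITIH1, ITIH2, ITIH3, ITIH6 and AMBP were not analysed here.

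Of 7 tested genes whose products cut or anchor CD44, 1 was higher and 1 lower. MMP14, a membrane protease that can shed CD44, had 1609, 1661 and 1605 CPM under shControl and 2181, 2001 and 2050 CPM under shZNF469 (1.28-fold higher, edgeR adjusted p = 0.0034). EZR encodes ezrin, which ties CD44 to actin, and had 114, 113 and 108 CPM under shControl and 80.7, 78.2 and 77.7 CPM under shZNF469 (1.41-fold lower, adjusted p = 0.00186). Its relatives MSN and RDX had estimates below 0 but did not pass (log2 fold change -0.13 and -0.19, edgeR adjusted p = 0.0882 and 0.182). The groups of MSN did not overlap in CPM, and those of RDX did. With DESeq2, 2 genes of this list were called lower. The merlin gene NF2 and the proteases ADAM10 and ADAM17 did not pass, and ESRP1 and ESRP2 were not analysed here.

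Of 4 ADAMTS protease genes known to cleave versican, 1 was higher and 0 lower. ADAMTS15 had 25.4, 25.6 and 26.5 CPM under shControl and 39.3, 40.1 and 36.5 CPM under shZNF469 (log2 fold change 0.58, edgeR adjusted p = 0.00184), so that it and VCAN both rose. ADAMTS4 went the other way, from 5.14, 6.43 and 8.13 CPM under shControl to 4.50, 3.97 and 3.54 CPM under shZNF469. The groups of ADAMTS4 did not overlap, but it did not pass (log2 fold change -0.71, edgeR adjusted p = 0.0568). With DESeq2, 1 gene of this list was called lower. ADAMTS1 and ADAMTS5 did not pass (log2 fold change -0.04 and 0.09, edgeR adjusted p = 0.676 and 0.584), and ADAMTS9 and ADAMTS20 were not analysed here. The enzymes that build chondroitin sulfate chains, which versican carries, gave 1 higher and 1 lower of 16. XYLT2, which starts the chain on the protein, rose 1.24-fold (adjusted p = 0.0146), and CHPF2, of chain extension, was 1.25-fold lower (adjusted p = 0.0137). The call of XYLT2 was lost when shZNF469 replicate 1 or any control was left out, and that of CHPF2 when any control was left out. In the limma fits of log2 TPM, 0 of these enzyme genes were called higher and 0 lower. DESeq2 called 4 of them higher and 1 lower, where its share over all genes was 22.5% in either direction. Of the antisense genes of the members, HAS2-AS1 did not pass (adjusted p = 0.802), and VCAN-AS1 and CD44-AS1 were not analysed here.

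**Figure D4:**
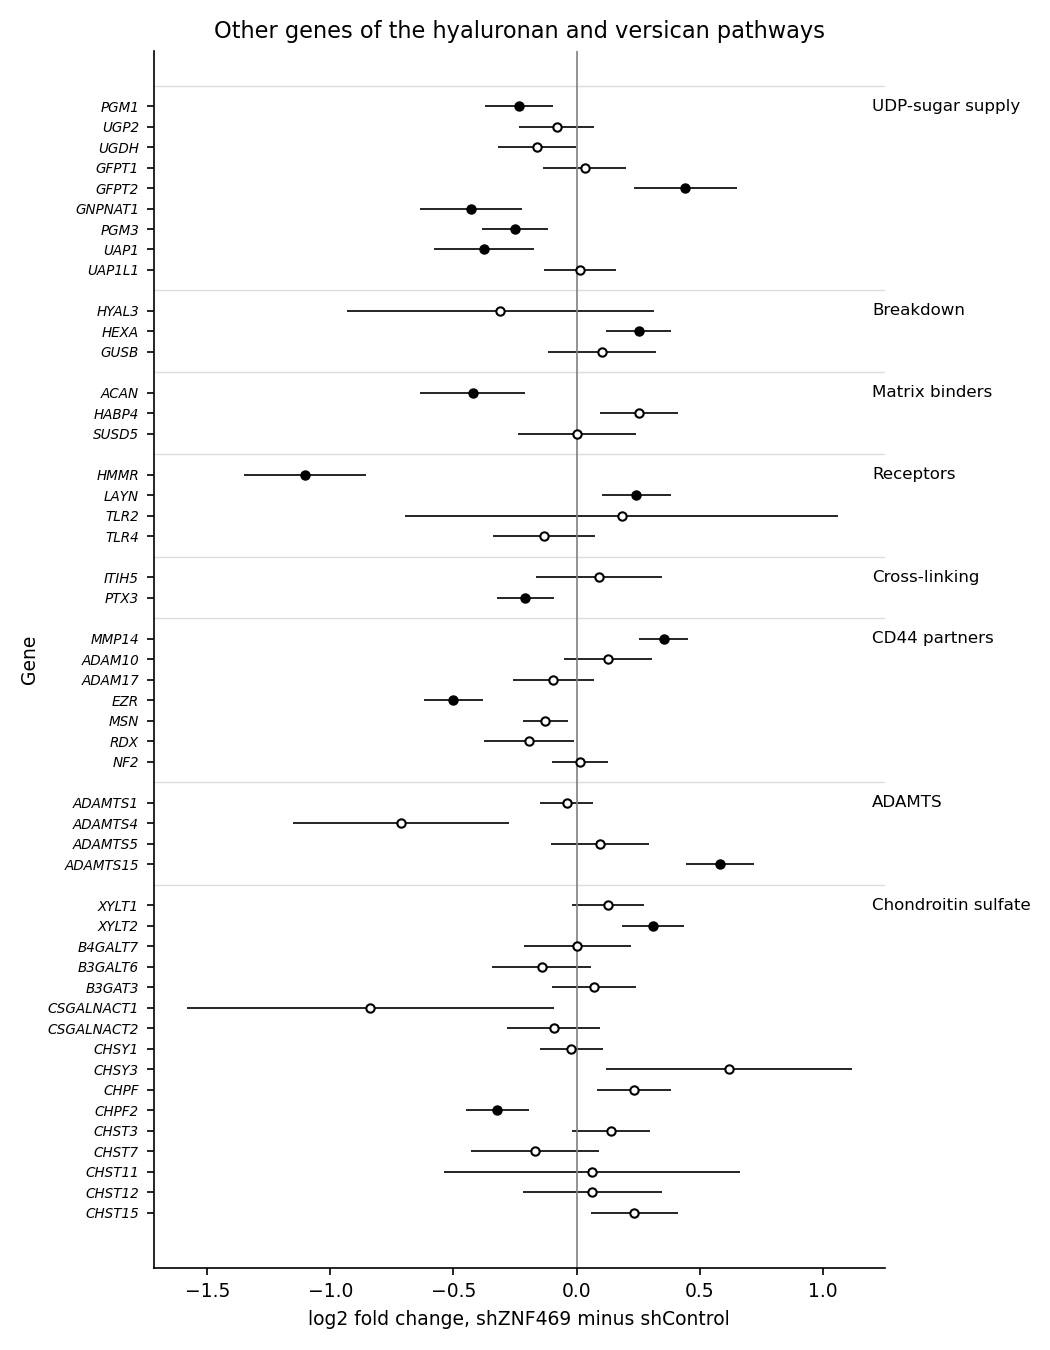
Log2 fold change (shZNF469 minus shControl) with 95% intervals of 48 tested genes of the wider pathway in 8 lists, from the edgeR fit (filled, adjusted p under 0.05; open, not passed); HAS2-AS1 is left out. GNPNAT1, PGM3 and UAP1 lie below 0 and GFPT2 above it, HMMR has the largest fall among those that passed, and the 16 chondroitin sulfate genes are spread around 0.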

How the data were processed

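RNA from 3 shControl and 3 shZNF469 libraries was sequenced after NEBNext Ultra RNA library preparation, per the labels' protocols. HISAT2, StringTie and GRCh38.p14 are named, per the submitters' processing notes. No source used here gives the annotation release, strand setting or filters. The deposited table holds whole-number counts per gene, and beside them the TPM computed by the authors. Groups were taken from the sample titles.

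Counts were analysed with edgeR 4.0.16 in R 4.3.3: filterByExpr (minimum count 10), TMM scaling, quasi-likelihood F-test without covariate (two-sided), and Benjamini-Hochberg adjustment over all 16353 genes tested. Standard errors come from the estimate and its F statistic. On simulated counts for this comparison (15740 genes), 47.9% of 1.5-fold and 64.6% of 2-fold changes were recovered, and 4 of 113 calls were unchanged genes. Alternatives were DESeq2 1.42.0, other size factors, no filter, a replicate block, each library left out, and limma 3.58.1 on log2 of the authors' TPM plus 1 or 0.1 (mean of 1 TPM or more in a group). Within groups the counts of library pairs differed beyond sampling noise (chi-square of 8.38 to 32.5 per degree of freedom).

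The members, the lists and the rule for named genes (all members, ZNF469, and in each list up to 4 called genes with the lowest p) were chosen with earlier results of these data known. PGM1, GFPT1, UAP1L1, ADAMTS1, ADAMTS4 and ADAMTS5 were given values outside that rule. Gene positions and promoters are from RefSeq on GRCh38.p14, and exon overlaps from GENCODE release 29. The promoter table held 9 of the 10 members. A gene of the wider pathway lists is not reported here.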

Additional observations from a re-analysis of the deposited data

How the results depend on the processing

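The directions of all 9 members were the same in every alternative that gave a value. HAS3 passed the filter on low counts through the knockdown libraries, so its direction is a description. The calls of HAS2, VCAN and CD44 held in all 13 alternatives, with log2 fold changes of -1.08 to -0.75, 0.55 to 0.79 and 0.30 to 0.35. DESeq2 called 2 members lower in place of 1 and 4 higher in place of 3, and 10 of the wider pathway genes higher and 11 lower in place of 6 and 9. Either limma fit on TPM called 2 wider pathway genes higher and 2 lower. The calls over all genes in the limma fits are not given here, so these counts are a description. Leaving out 1 library at a time gave 2 to 6 higher and 2 to 7 lower wider pathway genes, and 2 to 4 members higher and 1 lower. DESeq2 called 22.5% of the 14552 genes to which it gave an adjusted p, in place of 9.9% of 16353. The cause of these shifts was not tested.

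Whether the replicate numbers pair the samples could not be settled, since deviations from the mean of 3 libraries constrain one another. These deviations correlated at -0.0431, 0.0602 and 0.124 for same-numbered libraries. The last was the highest of all pairs between the groups, but not every library correlated best with its own number. With the replicate block, 592 genes were higher and 736 lower in place of 745 and 874, and the members' counts stayed at 3 higher and 1 lower. HAS3 gave no value in the limma fits, whose level filter removed it. At 123 to 282 counts for HAS2, and 0 to 67 for HAS3, depth limits what can be seen for the synthase genes.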
